A study of Homo sapiens with 6 samples.

Results

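In total 1791 G nucleotides in the mRNAs of U2OS cells were strong stops for reverse transcriptase (RT) whose strength differed by at most 1.5-fold between 2 cations in the RT reaction. U2OS is a line of human osteosarcoma cells, and the stops were mapped in its poly(A)-selected RNA, which was fragmented, joined to an adapter at the 3′ end and copied by RT. The strength of a stop is its enrichment score (E), the number of cDNAs that end at a nucleotide divided by the mean number per nucleotide of the transcript. A G was chosen if its E was at least 10 in one of the 2 libraries made without dimethyl sulfate (DMS) and if the larger of its 2 scores was at most 1.5-fold the smaller. Transcripts entered with at least 1 listed stop per nucleotide in both libraries, which held for 2723 transcripts. The 1791 stops lay on 523 of these transcripts, and they made up 0.218% of the 819682 G nucleotides listed there and 27.5% of the 6503 G nucleotides that were strong stops in either library.

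The study had 6 libraries, 1 for each condition, and no replicate. Both libraries without DMS came from untreated RNA, and the labels give RT in 150 mM Na+ for one and in 150 mM K+ for the other. The results of the study likewise compare K+ with Na+, whereas its methods name K+ or Li+. The names of the deposited files contradict the labels of these libraries, so they are called here the library labelled Na+ and the library labelled K+. The choice of the stops is symmetric in these libraries and does not depend on which name is right. In the other 4 libraries, RT was in 150 mM K+ and the RNA was modified by DMS, either after refolding in 150 mM K+, after refolding in 150 mM Li+, in unstressed cells, or in cells starved for 2 h in a salt solution. Cells were exposed to 8% DMS for 5 min. Differences between conditions therefore have no replicate check, all intervals cover counting error or the spread between positions only, and no test was made. Positions on 1 transcript share its fragments, and 1082 of the 1791 stops lay within 30 nt of another one, so that they are not independent of each other.

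The listed stops summed to between 12999691 in unstressed cells and 35371061 in the library labelled K+, and nucleotides with fewer than 3 stops in a library are not listed and were counted as 0. Transcripts of the mesenchymal genes VIM, SPARC, FN1, COL1A1 and TAGLN had between 1480 and 125127 listed stops in the libraries without DMS, whereas COL1A2 had none. EPCAM, CDH1 and PTPRC, markers of epithelial and blood cells, had at most 67, and none were listed for KRT5, CD3E or ALB.

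RT copies an RNA template from its 3′ to its 5′ end and can halt at a stable fold, at a modified base or at the end of a fragment. An RNA G-quadruplex (rG4) is a stack of planar G tetrads that is held together by K+ and much less by Na+ or Li+, and RT stalls at its 3′ border, so a stop at G that needs K+ is used as a mark of an rG4. Stops that keep the same strength in another cation are the counterpart of that signal. DMS methylates unpaired A and C on the face that pairs with another base, which halts RT at these bases. On G it methylates the opposite face, which a folded quadruplex protects, and RT passes this lesion.

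Examples of the stops are shown first, since they differ in kind. Each is given as 30 nt of the mRNA strand in the 5′ to 3′ direction, with the stop as the capital G, from the GENCODE transcript on GRCh37 (hg19). The stops of NUDC and MRPS24 were among the strongest, that of DLST lay at the end of several G runs, and those of DYNC1LI2, TRUB2 and RDH11 had scores with DMS that reached or passed those without it. The stop of SRSF10 was strongest in unstressed cells, and those of RPL27A and RPS23 stood on transcripts with many such stops.
NUDC: gagaaaggctgggtcttggGaccttgtcct
MRPS24: cggcctccgtgtgcagcggGttgctggggc
DLST: ggggaggggggaaggggtgGgagccaatac
DYNC1LI2: tcagttttttggggcagggGagatgaactt
TRUB2: aggttgtagtgcgctagacGgcgcctgtga
RDH11: tcttaacaaaaaccagtgtGgcaaaaaaaa
SRSF10: tctaggctttgcctgtaaaGaatacaacga
RPL27A: ttggtcagtgaacagacacGggtgaatgct
RPS23: ggcaagaaggaaagaccaaGatcataaata
The window of NUDC was chr1:27272814-27272843 on the plus strand, in the 3′ UTR and the last of 9 exons. That of MRPS24 was chr7:43909061-43909090 on the minus strand, in the coding sequence of exon 1. The window of DLST was chr14:75370310-75370339 on the plus strand, in the 3′ UTR. Also in 3′ UTRs were the windows of DYNC1LI2 (chr16:66757505-66757534), TRUB2 (chr9:131071495-131071524), RDH11 (chr14:68144102-68144131) and SRSF10 (chr1:24295999-24296028), all on the minus strand. RPL27A (chr11:8706362-8706391, plus strand) and RPS23 (chr5:81571925-81571954, minus strand) had these stops in the coding sequence of exon 4.

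Most of the stops were moderate. The median score was 11.4 in the library labelled Na+ and 11.3 in the library labelled K+, against 1.49 and 1.52 over all listed G, and the larger score was in the median 1.20-fold the smaller. These values chose the stops and are given as a description. A score of at least 10 was reached in both libraries by 989 stops, in the library labelled Na+ alone by 411 and in the library labelled K+ alone by 391. The median stop had 23 cDNAs in each library, with ranges of 7 to 3183 and 8 to 3379. The mean score over both libraries (geometric) was at least 20 for 167 stops and at least 50 for 23. At the borders of the rule, a G of RALY with scores of 8.68 and 10.0 was just inside and a G of HNRNPA3 with 10.00 and 7.89 just outside the threshold. A G of MARCHF5 with 10.5 and 7.01 was just inside the 1.5-fold limit, and one of ERF with 6.68 and 10.03 was just outside.

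NUDC, a cochaperone that binds the dynein motor, had the strongest stop on a well covered mRNA. Of 5933 and 6076 listed stops on its transcript in the libraries labelled Na+ and K+, 612 and 596 were at this single G, and its scores were 182 and 173. With DMS they were 19.3 after refolding in K+, 29.65 in Li+, 17.02 in unstressed cells and 66.6 in starved cells. The mitochondrial ribosomal protein MRPS24 had scores of 138 and 117 without DMS, and between 54.6 and 94.3 in the DMS libraries. SERF2, which encodes a small protein that modifies protein aggregation, had 141 and 113 without DMS at chr15:44086165, and between 35.0 and 78.9 with DMS. Both lie in transcripts with few listed positions, 6.56% of MRPS24 and 11.1% of SERF2, against 49.7% of NUDC.

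G-rich stops were among the strongest, and not all of them are shown. NUDC had 15 G in the 30 nt that end at its stop and 4 runs of 2 or more G. DLST, which encodes a subunit of the 2-oxoglutarate dehydrogenase complex, had 22 G in the 30 nt that end at the stop and scores of 82.8 and 124 without DMS. In the DMS libraries only 9, 7, 4 and 11 stops remained, with scores of 8.54 in K+, 4.73 in Li+, 6.15 in unstressed cells and 33.8 after starvation. The site holds 4 runs of 2 or more G, and its score was higher in the library labelled K+, within the limit of the rule. Such runs were found for 84.6% of the G stops 2-fold stronger in the library labelled Na+. For the G stops 2-fold stronger in the library labelled K+ it was 9.29%. Which of these libraries had K+ in the RT reaction was not tested. DYNC1LI2, a subunit of the dynein motor, went the other way from DLST, with higher scores in the DMS libraries. Its scores of 80.8 and 56.1 without DMS were followed by 250 in K+, 300 in Li+, 355 in unstressed cells and 347 after starvation.

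Several others of the 12 highest scores were on transcripts that are nearly identical to another gene or are almost empty, and their counts are uncertain. LOC644936, RPL31P11 and ANXA2P2 are copies of other genes, and between 1.23 and 3.01% of their positions were listed. Their scores without DMS were 182 and 185 (LOC644936), 173 and 176 (RPL31P11), and 90.3 and 92.9 (ANXA2P2). FAM107A had 152 and 165, with 0.797% of positions listed, and a transcript without a gene name had 89.5 and 103, with 2.36% listed. TMEM70, an assembly factor of the mitochondrial ATP synthase, was in neither class and had 130 and 127 with 28.4% of positions listed.

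The stops were concentrated on few transcripts. Only 1 was found on each of 266 transcripts, whereas 122 transcripts with at least 4 held 1229 (68.6%) and 42 with at least 10 held 772. Joined over gaps of up to 30 nt, the 1791 stops formed 1029 groups. RPL27A, a protein of the large ribosomal subunit, had 56 stops, and 90.5% of its listed cDNA ends fell into a stretch of 436 nt, 8.95% of the transcript. RBM8A, a core protein of the exon junction complex, had 34, and SERF2 and the tropomyosin pseudogene TPM3P9 had 33 each. Among the next were CD59 and VAPA (30 each), RPS23 and RBBP4 (29 each), HNRNPA3 (25), NDUFA11 (22), NACA (21) and SUB1 (20). Between 10 and 19 stops were found in PSMB2, STMN1, NDUFC2, TARDBP, MRPL22, RPL10, TMED10, PPIA, ANXA2, MTRNR2L1, SMIM10L1, PDIA3, HSPA1A, CYCS, SCRIB, AHNAK, CHORDC1, RALY, GSPT1, RPSA, POLR2F, RAB11A, ENY2, MZT2B, COX20, PLEC and MTLN.

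Transcripts with many stops were covered over a small part of their length. Of the 42 with at least 10, 35 had fewer than 30% of their positions listed, and in the median 81.7% of their cDNA ends lay in a stretch of 19.4% of the transcript. Over all eligible transcripts, 122 (4.48%) had fewer than 30% of positions listed, and 114 of these held at least 1 stop and together 993 (55.4%) of the 1791. In the median 38.1% of the positions were listed on transcripts with a stop and 59.4% on the others. Unlisted positions count as 0 in the mean of the transcript. With the mean taken over the listed positions alone, an alternative chosen after seeing the data, 39 stops remained.

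A second measure compared each stop with its surroundings. The stops of both libraries without DMS were summed and divided by the mean over the positions 3 to 30 nt away on both sides, with 1 stop added to the flank. The median was 2.80-fold (quartiles 2.02 and 4.68), against 1.36-fold over all listed G and 13.7-fold over 3631 strong G stops with at least 2-fold larger E in the library labelled Na+. A sharp peak, at least 5-fold above the flank, was formed by 406 of the 1791 stops (22.7%), against 3.84% of all G. These ratios use the counts by which the stops were chosen, so that values above those of all G are set by the choice and are a description. The limit of 5-fold was chosen after seeing the data. Sharp stops lay on 295 transcripts, and 108 of the 154 stops on transcripts with at least 50% of positions listed were sharp.

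**Figure D1:**
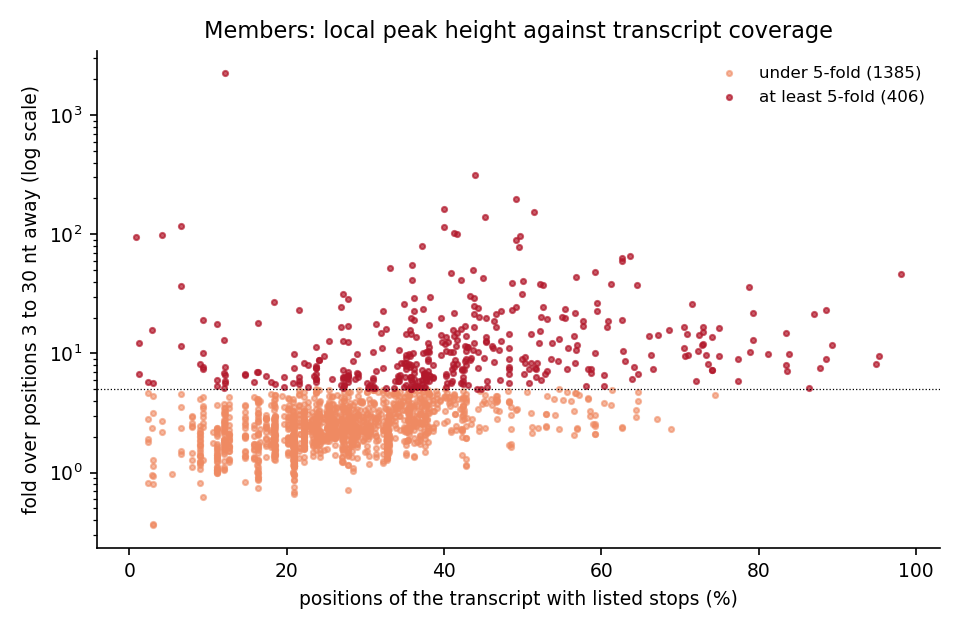
Each point is one of the 1791 stops, with the share of positions of its transcript that have listed stops (x axis, %) and its count over the mean of the positions 3 to 30 nt away (y axis, fold, log scale). Red points are the 406 stops at least 5-fold above the flank and orange points the 1385 others, most of which lie on transcripts with under 50% of positions listed.

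In the mRNA, 789 of the 1650 stops with a matched annotation lay in 3′ UTRs, a share of 47.8% (95% Wilson interval 45.4 to 50.2%). The coding sequence held 723 (43.8%), 5′ UTRs 89 (5.39%) and noncoding transcripts 49 (2.97%). Of the other listed G on the same 523 transcripts, 35.5% were in 3′ UTRs and 59.9% in coding sequence. The share depended on depth and was 33.8% among 559 stops on transcripts with at least 3 stops per nucleotide and 35.5% among 487 stops with at least 50 counts in each library, for which the share of other G was not computed. It was 48.3% for the sharp stops and 47.7% for the others, and it was 61.7% for the G stops with at least 2-fold larger E in the library labelled Na+. In coding sequence, 45.1, 19.5 and 35.4% of the stops were at the first, second and last position of a codon, against 43.8, 21.0 and 35.2% of all listed G.

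The stops did not stand out by their content of G. In the median 8 of the 30 nt ending at the stop were G, as for all listed G, against 17 for G stops 2-fold stronger in the library labelled Na+. Likewise, 387 G stops 2-fold stronger in the library labelled K+ had a median of 8, held the motif described next in 9.29% and were 2.86-fold above their flank in the median, so these values were not particular to the cation-independent stops. A motif of 4 G runs, each of 2 or more G and separated by 1 to 9 nt, searched on the mRNA strand in the 45 nt ending at the stop, was found for 143 of 1605 stops with a sequence. This share of 8.91% (interval 7.61 to 10.4%) was below the 11.5% of all listed G and the 15.6% of the other G on the same transcripts. With runs of 3 or more G and loops of 7 nt at most, it was found for 5 stops (0.312%), against 0.368% of all G. The same motifs were found for 84.6% and 23.9% of the stops 2-fold stronger in the library labelled Na+. Sharp stops held the first motif more often than the others, 67 of 367 (18.3%, interval 14.6 to 22.5%) against 76 of 1238 (6.14%), with a median of 10 G in 30 nt. The share was 17.9% among stops with a score of at least 20, and 11.2% without transcripts under 30% listed, near that of all G.

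Sharp and other stops differed in the bases next to them. Of the 1238 other stops, 59.05% (interval 56.3 to 61.8%) were followed by A and 2.99% by C, against 37.6 and 14.4% of all listed G and 35.7 and 15.0% of the other G on the same transcripts. The G stops 2-fold stronger in the library labelled K+ had A after them in 57.1% and C in 3.01%, close to the other stops. Of the 367 sharp stops, 26.2% were followed by A and 18.8% by C. Instead they were preceded by G in 65.9% (interval 60.9 to 70.6%), against 19.1% of the other stops, 24.7% of all G and 91.5% of the stops 2-fold stronger in the library labelled Na+. Further 3′, sharp stops had C at position +2 in 47.4%, A at +5 in 40.9% and G at +6 in 47.7%, counted from the stop at 0, where all G had 25.2, 28.8 and 29.3%. The other stops had 32.1, 36.6 and 31.8% at the same positions. Stops at U chosen by the same rule, 1089 with a sequence, had C at +2 in 30.1%, A at +5 in 38.9%, G at +6 in 26.4% and C at +1 in 5.14%. The G stops 2-fold stronger in the library labelled K+ had 36.3, 40.7 and 34.2% at +2, +5 and +6.

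**Figure D2:**
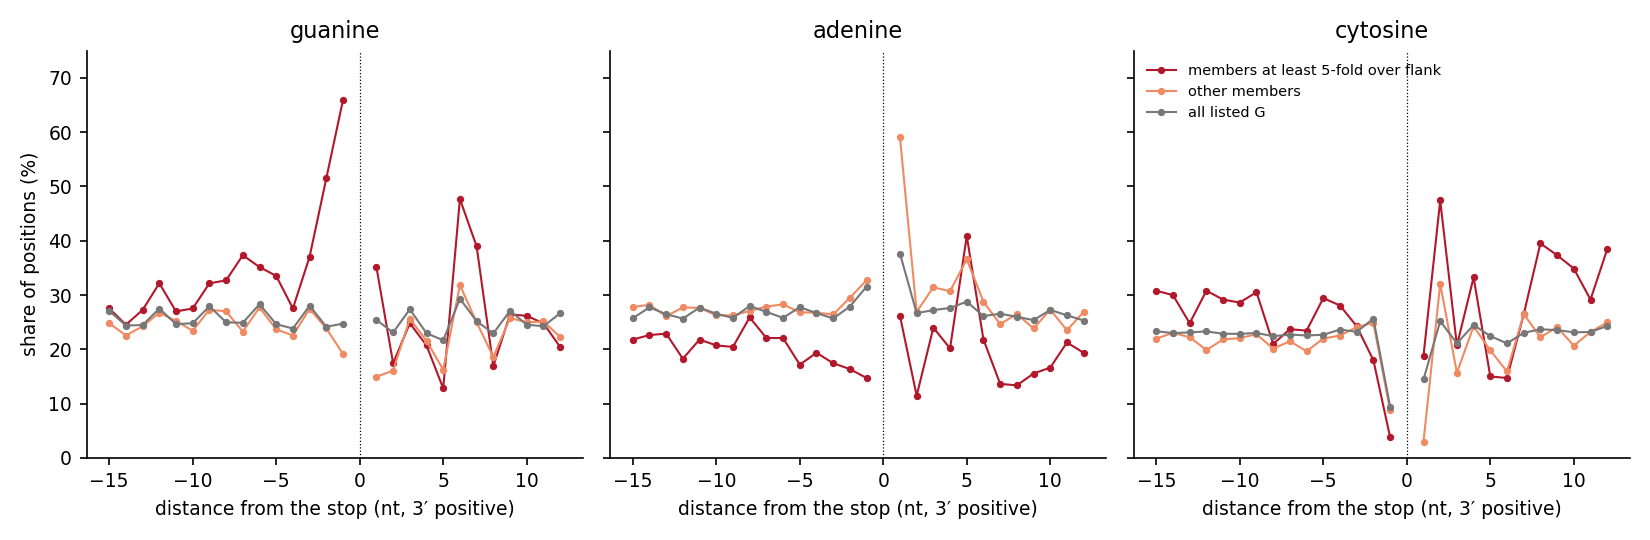
Share of positions (y axis, %) with guanine, adenine or cytosine at each distance from the stop (x axis, nt, 3′ positive), for 367 sharp stops (red), 1238 other stops (orange) and all listed G (grey). Guanine reached 65.9% just before sharp stops, and adenine 59.05% just after the other stops.

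Predicted base pairing also separated the sharp stops. Windows of 60 nt, from 44 nt before to 15 nt after the stop, were folded with RNAfold, which models helices and no quadruplex. The median folding energy was -17.9 kcal/mol for sharp stops, -10.0 for the others and -11.45 for every 20th listed G, and their mean share of G and C was 57.6, 45.4 and 48.8%. The stop was paired with a base on its 5′ side, in 261 of 367 sharp stops (71.1%, interval 66.3 to 75.5%). The share was 50.5% for the other stops, 51.3% for all G and 34.5% for stops 2-fold stronger in the library labelled Na+. With windows of like composition compared, sharp stops were paired in 66.7% where G and C made up 45 to 55%, in 74.2% at 55 to 65% and in 79.7% at 65% or more. The other G on the same transcripts were paired in 52.3, 52.4 and 56.0%, outside the intervals of the sharp stops in each of these classes. Below 45% of G and C the shares were 53.7 and 48.5%, and the interval of the sharp stops (41.9 to 65.1%) included the other G.

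**Figure D3:**
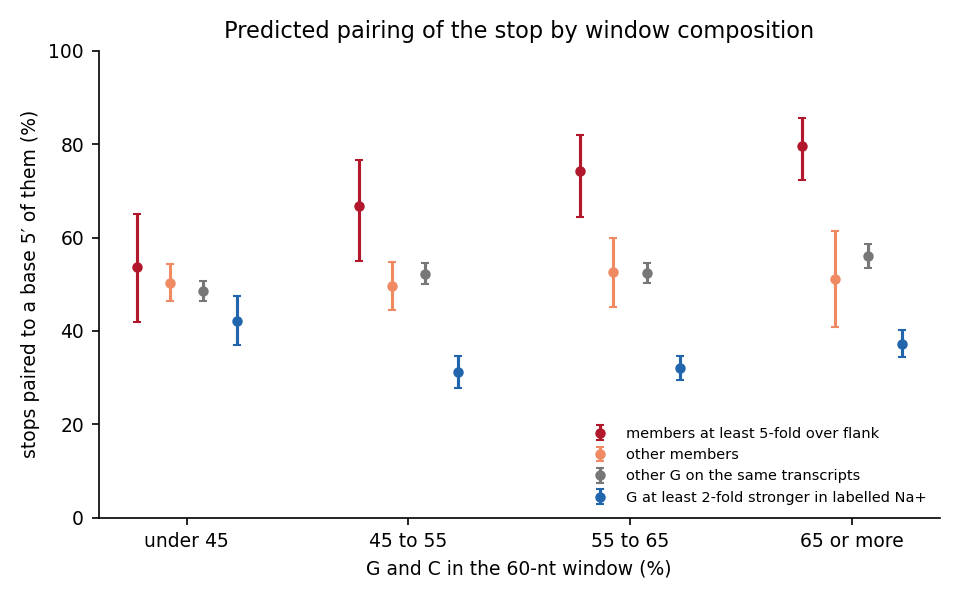
Share of stops predicted to pair with a base on their 5′ side (y axis, %) by the share of G and C in the 60-nt window (x axis, %), with 95% Wilson intervals. Sharp stops (red) rose from 53.7 to 79.7%, whereas other stops (orange) and other G on the same transcripts (grey) stayed between 48.5 and 56.0% and G stops 2-fold stronger in the library labelled Na+ (blue) were lowest.

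The sharpest stops with a helix inside 30 nt are given as examples, and pairing on the 5′ side was required for their choice. Stops at the 3′ end of such pairing, with the next base not so paired, were a minority. They were 64 of all 367 sharp stops (17.4%, interval 13.9 to 21.7%), against 12.3% of the other G on the same transcripts. The capitals mark both strands of the predicted helix that holds the stop, which is the third base from the 3′ end of each sequence. These 6 were chosen after their values were seen, as those with the highest ratio to the flank.
AKIRIN1: gcgcccctctgcccGGCCCcactccGGGCC
LGALS3: gggctaCCCAGGGgcttcctaTCCTGGGgc
RDH11: tgatgaggtcttaacaaaaaCCAgtgTGGc
SLC7A5: cccgcaggatcCCTCCTGagctCGGGGGGc
CLPP: gcctCCTCTCCAgaatcatgTGGAGGGGcc
MAP4: CCTGGcggccccaactcgggctcCCGGGtc
The windows were chr1:39457135-39457164 (AKIRIN1, plus strand) and chr14:55604846-55604875 (LGALS3, plus) in coding sequence. Those in 3′ UTRs were chr14:68144110-68144139 (RDH11, minus), chr16:87865243-87865272 (SLC7A5, minus), chr19:6368729-6368758 (CLPP, plus) and chr3:47894312-47894341 (MAP4, minus). The stop of CLPP, a mitochondrial protease, was 42.7-fold above its flank and ended a helix of 8 pairs. Without DMS it had 76 (labelled Na+) and 59 (labelled K+) stops, for scores of 48.45 and 36.8. With DMS it had 17 stops in K+, 11 in Li+ and 13 in each of the libraries from cells, for scores of 19.9, 8.87, 15.2 and 21.95. LGALS3, the lectin galectin-3, had a helix of 7 pairs and a stop 79.1-fold above its flank, but only 14 and 10 stops without DMS and at most 3 in each DMS library. SLC7A5, an amino acid transporter, had scores of 14.7 and 12.6 without DMS and of 6.86, 10.9, 7.82 and 18.9 with DMS, from 6, 14, 5 and 3 counts.

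The DMS libraries were not used to choose the stops. There the median score was 5.30 in RNA refolded in K+, 4.90 in Li+, 3.17 in unstressed cells (1678 stops on transcripts with at least 0.25 stops per nucleotide) and 6.80 in starved cells (1538 stops). Since the stops were chosen for high scores in the libraries without DMS, a lower score in another library is partly set by the choice. A score of at least 10 was kept by 303 stops in K+ (16.9%, interval 15.3 to 18.7%) and by 235 in Li+ (13.1%, 11.6 to 14.8%), against 0.128% and 0.0667% of all listed G. In unstressed cells it was 234 (13.9%, 12.4 to 15.7%) and in starved cells 446 (29.0%, 26.8 to 31.3%), against 0.432% and 1.03% of all G. These shares were above those of all G in each of the 4 libraries, which is also partly set by the choice of high scores.

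The share of A and C among the cDNA ends also differed between the libraries. In the median eligible transcript, 51.4 and 52.0% of the listed stops were at A or C without DMS, whereas it was 86.1% in K+, 84.1% in Li+, 91.8% in unstressed cells and 80.8% in starved cells. With each count compared only with the G and U of its transcript, the median scores were 11.9 and 11.9 without DMS and 15.3, 13.3, 11.3 and 15.2 in K+, Li+, unstressed and starved cells. On this scale at least 10 was reached by 70.7, 69.5, 52.7 and 72.5% of the stops, against between 6.02 and 8.03% of all G and 11.7, 9.87, 8.31 and 11.25% of the other G on the same transcripts. The excess over other G is again partly set by the choice. Sharp stops had medians of 12.8 and 12.7 without DMS and of 19.3, 15.9, 13.4 and 14.6 with DMS. G stops 2-fold stronger in the library labelled Na+, a difference by which they were chosen, had 20.3 in that library, 1.49 in the library labelled K+ and 5.90, 5.09, 0 and 3.28 in the DMS libraries.

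**Figure D4:**
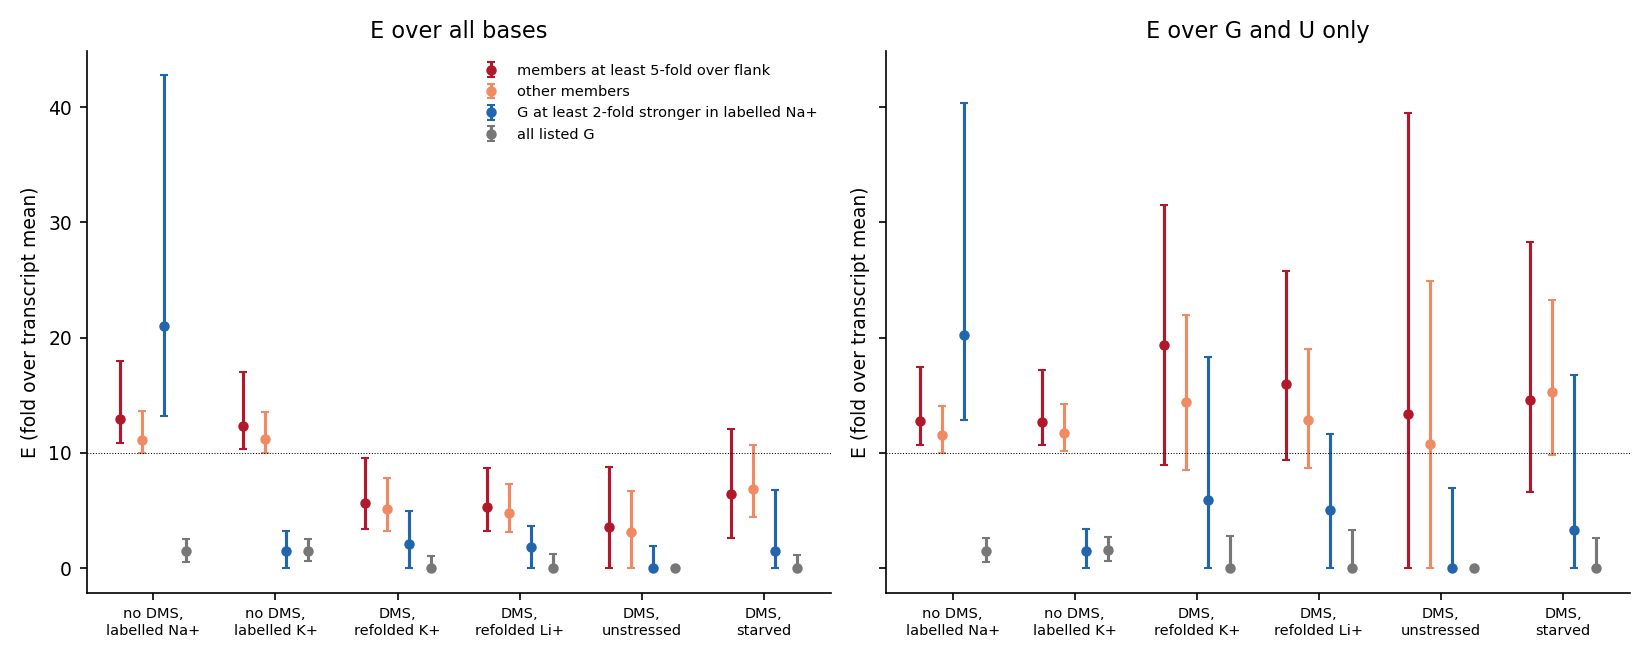
Median score E (points) with quartiles (bars) in the 6 libraries, relative to all bases of the transcript (left) and to its G and U only (right), for sharp stops (red), other stops (orange), G stops 2-fold stronger in the library labelled Na+ (blue) and all listed G (grey). The dotted line is the threshold of 10, below which the medians of the stops fell with DMS on the left but not on the right. The stops are called members in the legend.

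The ratio to neighbouring G was lower with DMS, which is partly set by the choice of stops that were high without it. Compared with the other G 3 to 30 nt away, the sharp stops were 8.78-fold and 8.57-fold higher without DMS in the median, 6.26-fold higher in K+, 6.4-fold in Li+, 3.38-fold in unstressed cells and 4.91-fold after starvation. The others went from 2.30-fold and 2.31-fold to between 1.04-fold and 1.62-fold. Over all listed G the medians were 1.23-fold and 1.27-fold without DMS and 0 in each DMS library. Of 1446 stops on transcripts past the minimum in all 4 DMS libraries, 866 (59.9%) were listed in all 4 and 23 in none, whereas 11.6% of the 676809 G on such transcripts were listed in all 4. Listing needs at least 3 counts, and the median without DMS was 23 for the stops and 4 and 5 for all listed G. The higher share of the stops is therefore partly set by the choice.

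A score of at least 10 in each of the 4 DMS libraries was found for 157 of these 676809 G. Among the 1791 stops were 102 of these, an overlap that is partly set by the choice. They lay on 56 transcripts, 81 were on transcripts with fewer than 30% of positions listed, and 43 were sharp. RDH11, a retinal reductase, had 59.2% of positions listed. Its scores were 49.5 and 60.7 without DMS, 62.8 in K+, 71.2 in Li+, 140 in unstressed cells and 102 after starvation, and the next G in the 3′ direction was also one of the 102. PPP3R1, the regulatory subunit of the phosphatase calcineurin, had 28.1 and 29.9 without DMS, 38.8 and 43.4 in K+ and Li+, 77.6 in unstressed cells and 418 after starvation. Its log2 ratio of starved to unstressed cells was 2.40 over all bases and 0.81 relative to G and U. LRRFIP1, a transcriptional repressor, had 27.6 and 38.3, then 70.1, 59.8, 129 and 111 in the DMS libraries. EIF5A, a translation factor, had 39.7 and 30.4, then 17.5, 22.9, 29.05 and 36.7, with 27.1% of positions listed. RDH11, PPP3R1, LRRFIP1 and EIF5A were chosen after their values were seen.

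The cation in which the RNA was refolded and modified made little difference. Of the 1791 stops, 771 had at least 20 stops over both in vitro libraries, and the median log2 ratio of E in K+ to Li+ was 0.06 (interval 0.01 to 0.10), against 0.08 over all G. At least 2-fold higher in K+ were 16 (2.08%, interval 1.28 to 3.34%) and at least 2-fold lower 11 (1.43%, 0.80 to 2.54%), against 4.02% and 2.32% of all G with as many stops. Relative to G and U the median was 0.09, with 19 stops higher (2.46%) and 10 lower (1.30%), against 4.84% and 1.92% of all G. For the sharp stops the median was -0.03 (interval -0.15 to 0.06). The G stops 2-fold stronger in the library labelled Na+ had a median of 0.60 (interval 0.53 to 0.70), and 30.7% of them were at least 2-fold higher in K+.

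The largest ratios rested on few counts. Among the 417 stops with at least 50 counts in this pair, HNRNPA3, an RNA-binding protein, had 32 stops in K+ and 20 in Li+ and a ratio of 2.24 (interval 1.24 to 4.13), RPL27A 38 and 30 with 1.76 (1.06 to 2.95), and the elongation factor EEF1D 50 and 39 with 1.74 (1.12 to 2.72). The lowest was the ribosomal protein RPL22, with 18 stops in K+ and 61 in Li+ and a ratio of 0.411 (0.229 to 0.704). RPL36A followed at 0.514, the transcriptional coactivator SUB1 at 0.529 and the spliceosomal Sm protein SNRPE at 0.529, with upper ends of their intervals between 0.855 and 0.979. These are among the extremes of 417, and their intervals do not allow for that choice.

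In starved cells the stops had higher scores than in unstressed cells, as did other G. The median log2 ratio was 0.75 (interval 0.68 to 0.82) over 683 stops and 0.60 over all G with at least 20 counts. At least 2-fold higher were 247 (36.2%, interval 32.6 to 39.8%) and at least 2-fold lower 8 (1.17%), against 31% and 1.81% of all G. Relative to G and U only, the medians were -0.05 for the stops and -0.23 for all G, and 77 stops (11.3%) were higher and 63 (9.22%) lower, against 10.9% and 18.2% of all G. The direction over the stops therefore depended on the scale. The part of the lower share of A and C in starved cells in this difference was not tested beyond this change of scale. Sharp stops had 0.74 and the others 0.76. The G stops 2-fold stronger in the library labelled Na+ had 1.52 (interval 1.38 to 1.67), and 0.53 relative to G and U.

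Among the 429 stops with at least 50 counts in this pair, those with the largest ratios of starved to unstressed cells had few counts in unstressed cells. RPS23, a protein of the small ribosomal subunit, had 7 of 23891 listed stops in unstressed and 230 of 102303 in starved cells, a ratio of shares of 7.67 (interval 3.66 to 19.3). RPS10, also of the small subunit, had 5 and 88 stops and a ratio of 7.91 (3.26 to 25.0). GNAS, the stimulatory G protein alpha subunit, had 12 and 68 with 6.19 (3.33 to 12.6). Their scores in starved cells, between 7.34 and 12.2, did not exceed 1.5-fold those without DMS, which were between 10.7 and 15.8, whereas in unstressed cells they were between 0.957 and 1.97. The lowest ratios among these 429 were 0.258 (interval 0.181 to 0.365) for the noncoding RNA WAC-AS1, 0.312 (0.231 to 0.420) for the splicing factor SRSF10 and 0.598 (0.498 to 0.720) for MTRNR2L1, a copy of a mitochondrial sequence with 9.35% of positions listed. CYRIB, a regulator of actin, was at 0.649 (0.389 to 1.09), so that its interval included no difference. Relative to G and U the log2 ratios were lower, 2.06 for RPS23, 2.13 for RPS10 and 1.86 for GNAS, in place of 2.75, 2.74 and 2.54. They were -2.91 for WAC-AS1, -2.36 for SRSF10, -1.41 for MTRNR2L1 and -1.70 for CYRIB, in place of -1.95, -1.68, -0.74 and -0.63.

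In unstressed cells the stops were lower than in RNA refolded in K+, as was G in general. The median log2 ratio of unstressed cells to RNA refolded in K+ was -0.41 (interval -0.47 to -0.34) over 600 stops and -0.32 over all G. At least 2-fold higher in cells were 29 (4.83%) and at least 2-fold lower 111 (18.5%), against 6.19% and 19.6% of all G. Relative to G and U, the medians were 0.10 and 0.21, and 79 stops (13.2%) were higher and 43 (7.17%) lower, against 17.3% and 7.85% of all G. The sign again changed with the scale. The G stops 2-fold stronger in the library labelled Na+ had -1.24 and, relative to G and U, -0.61, which kept the sign.

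Some stops were far stronger in cells. SRSF10 had 23 of 3619 listed stops in refolded RNA and 94 of 1308 in unstressed cells, a ratio of 11.3 (interval 7.11 to 18.7), and scores of 10.4 and 7.88 without DMS, 19.2 in K+, 19.4 in Li+, 217 in unstressed cells and 67.7 after starvation. TRUB2, a mitochondrial pseudouridine synthase, had 74 of 1086 in refolded RNA, 422 of 929 in unstressed and 393 of 770 in starved cells. Its scores were 46.2 and 61.6 without DMS, 96.2 in K+, 61.5 in Li+, 641 in unstressed cells and 721 after starvation, the highest of the named stops. ATP2A2, the calcium pump of the endoplasmic reticulum, had 24 and 42 stops and a ratio of 4.55 (2.69 to 7.86). For TRUB2 the ratio was 6.67 (5.20 to 8.65). Relative to G and U the log2 ratio of TRUB2 was only 1.00, in place of 2.72 over all bases, whereas it was 3.80 in place of 3.45 for SRSF10 and 2.98 in place of 2.16 for ATP2A2. At the other end, a stop 18 nt from the start of the listed HSP90AB1 transcript, which encodes a heat shock chaperone, had 91 of 41284 stops in refolded RNA and 3 of 32036 in unstressed cells. Its ratio was 0.042 (0.0086 to 0.128). RPS3, of the small ribosomal subunit, had 0.238 (0.126 to 0.420). Relative to G and U, HSP90AB1 was at -3.67 and RPS3 at -1.54 on the log2 scale, in place of -4.16 and -1.999.

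**Figure D5:**
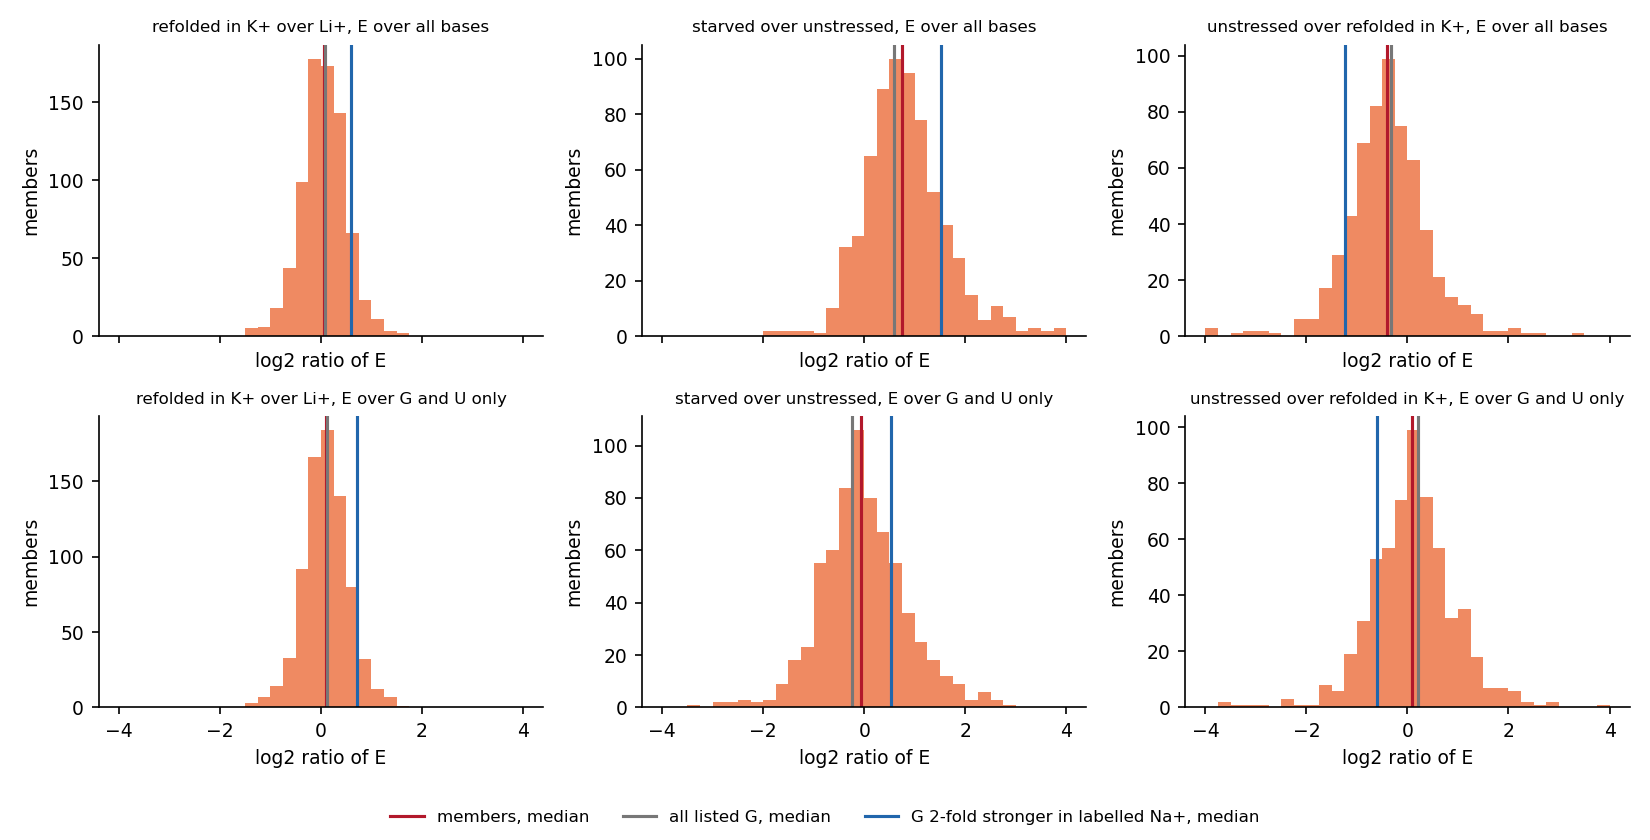
Number of stops (y axis) by log2 ratio of E (x axis, values beyond 4 drawn at 4) for refolding in K+ over Li+ (left), starved over unstressed cells (middle) and unstressed cells over RNA refolded in K+ (right), relative to all bases (top) and to G and U only (bottom). Lines are the medians of the stops (red), all listed G (grey) and G stops 2-fold stronger in the library labelled Na+ (blue, farthest from 0 in the upper panels, at 0.60, 1.52 and -1.24); in the left panels the red and grey lines nearly coincide.

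By gene group, at least 1 stop was found on 24 of 82 transcripts of cytosolic ribosomal proteins (29.3%), 13 of 33 of the cytoskeleton (39.4%), 9 of 27 of hnRNP and SR proteins (33.3%) and 7 of 25 of chaperones (28.0%), against 523 of 2723 of all (19.2%). It was 8 of 44 for translation factors, 10 of 77 for oxidative phosphorylation, 4 of 33 for the proteasome, 3 of 14 for glycolysis and 3 of 7 for matrix proteins. The cytoskeleton list was drawn by gene symbol and took in the tropomyosin pseudogene TPM3P9, which held 33 of its 61 stops. Ribosomal protein mRNAs held 205 of the 1791 stops (11.4%), of which 12 were sharp, and oxidative phosphorylation 72, of which 2 were sharp. For translation factors it was 11 of 21, for glycolysis 6 of 9, for hnRNP and SR proteins 8 of 40, for chaperones 7 of 35, for the proteasome 3 of 26, for the cytoskeleton 7 of 61 and for matrix proteins 0 of 4, beside 22.7% over all stops. The median log2 ratio of starved to unstressed cells was 0.90 over 203 stops of ribosomal protein mRNAs and 0.66 over 45 of oxidative phosphorylation, beside 0.75 over all. The other groups had 7 to 19 stops and medians between 0.48 (translation factors, 11 stops) and 1.24 (chaperones, 10 stops), and none could be compared for matrix proteins. In K+ over Li+, ribosomal protein mRNAs had 0.08, oxidative phosphorylation 0.03, hnRNP and SR proteins 0.07 over 30 stops and translation factors -0.23 over 17, beside 0.06 over all.

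No short sequence was shared widely. Of all words of 8 nt, from 4 nt before to 3 nt after the stop, 7 were found in stops of at least 4 genes, and none in more than 5, of which 6 are given. The word ctggGgct was shared by DIAPH1, FLNA, PPP5C, PTGES2 and RPL27A (0.312% of the stops, against 0.028% of all G), aaaaGaag by LSM5, NUDT21, REEP5, RPS26 and TCOF1 (0.064% of all G), and tgaaGaaa by ITGB1BP1, MRPL42, RALY, RPL17 and SMDT1 (0.074%). Found in 4 genes each were agaaGaca (ALDH7A1, MESD, NUDCD1 and RBM8A), cccaGaca (HMGN2, METTL9, MKI67 and UBE2N) and ctttGaca (CIAO1, CIZ1, LBHD1 and TFAM), each 0.249% of the stops, against 0.033, 0.019 and 0.020% of all G.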

How the data were processed

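RT stops were measured in 6 libraries of U2OS cells, 1 per condition. The authors removed duplicate reads, trimmed adapters and aligned the reads to hg19 transcripts with Bowtie (version not given in the sources used here), keeping unique alignments with no mismatch. They deposited an RT stop count per nucleotide, and all counts listed in the files are 3 or more. The authors also deposited a ratio of each count to a mean, which in the files is that of the same base in the transcript, and it served as an alternative. From the counts, E was computed as the count times the transcript length (the largest position listed in any library) divided by the sum of listed stops. Depth was 12999691 to 35371061 listed stops per library. Whether unique mapping left few listed positions on transcripts with near-identical copies was not tested.

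RefSeq transcripts were assigned to transcripts of GENCODE release 44 on GRCh37 through the bases that the files list (at least 97% identity over at least 80% of at least 15 listed bases), which held for 2643 of 2723 eligible transcripts and gave annotation for 1650 and sequence for 1605 stops. The other 141 have no annotation here. Ratios between DMS libraries used transcripts with at least 0.25 stops per nucleotide, at least 20 stops in the pair and 1 count added. Ratios of single stops have exact binomial intervals, shares 95% Wilson intervals and medians order-statistic intervals, which cover counting error or the spread between positions only. Stops, gene lists and comparisons were chosen with earlier results of these data known. Named were the 12 strongest stops, the 4 (or 3) highest and lowest of each ratio with at least 50 stops, those at the borders of the rule, transcripts with many stops and words shared by at least 4 genes. Of the 122 transcripts with at least 4 stops, those with at least 10 (42) were named, and the 80 with 4 to 9 (457 stops, median 29.6% of positions listed) are given in sum. One G stop is described per gene in each part. Some of these genes, stops and words are not reported here. In total 14 alternatives were set and 3 were added after seeing the data. The calculation was tested on simulated data. Folds came from RNAfold 2.7.2, figures from matplotlib 3.10.9, and all other values from scipy 1.17.1, pandas 2.3.3 and numpy 2.4.6 under Python 3.11.15.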

Additional observations from a re-analysis of the deposited data

How the results depend on the processing

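With 1 library per condition, all values were recomputed without a test. Of 207 values from 17 alternatives, 125 moved by more than their interval (counts of stops by over 1.5 times), 5 changed sign and 77 did neither. Among the latter were the number of stops at a limit of 2-fold (2485) and with the deposited ratio (1400). No paired analysis was possible because each condition had 1 library and the labels give no replicate numbers. The values that moved are given below as medians of E in the DMS libraries, shares of stops with E of at least 10 there, and median log2 ratios. The cause of these changes was not tested.

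With E of at least 5, 20611 stops were chosen and 6.621% held the motif. Median scores were 2.028 (K+), 2.277 (Li+), 0 (unstressed) and 3.014 (starved), with shares of 2.154% (K+), 1.485% (Li+), 3.723% (unstressed) and 8.545% (starved). With E of at least 20, 204 stops remained, 45.18% were in 3′ UTRs, 17.9% held the motif and the median was 9 G in 30 nt. Median scores were 12.71 (K+), 11.24 (Li+), 8.175 (unstressed) and 15.61 (starved), with shares of 66.67% (K+), 64.22% (Li+), 41.71% (unstressed) and 79.68% (starved). Log2 ratios were 0.84 (starved to unstressed) and -0.47 (unstressed to K+). With a stricter fold limit, 1094 stops remained. Median scores were 5.528 (K+), 5.279 (Li+) and 7.296 (starved). With a limit of 2-fold, 50.37% were in 3′ UTRs. Median scores were 4.9 (K+), 4.555 (Li+), 2.64 (unstressed) and 6.372 (starved), with shares of 14.33% (K+) and 10.78% (Li+). With transcripts of at least 3 stops per nucleotide, 559 stops remained and 33.82% were in 3′ UTRs. Median scores were 5.703 (K+), 5.551 (Li+), 3.929 (unstressed) and 7.521 (starved), with shares of 15.74% (Li+), 10.55% (unstressed) and 32.67% (starved). Log2 ratios were 0.84 (starved to unstressed). With the deposited ratio as E, 43.49% were in 3′ UTRs. Median scores were 8.385 (K+), 8.455 (Li+), 6.87 (unstressed) and 9.245 (starved), with shares of 37.64% (K+), 38.21% (Li+), 35.92% (unstressed) and 43.3% (starved). Log2 ratios were -0.032 (K+ to Li+), 0.20 (starved to unstressed) and -0.064 (unstressed to K+). With the strongest stop per 30 nt, 1029 stops remained and 52.79% were in 3′ UTRs. Median scores were 4.823 (K+), 4.542 (Li+), 2.448 (unstressed) and 6.009 (starved), with shares of 14.48% (K+) and 25.27% (starved). With at least 50 counts in each library without DMS, 487 stops remained and 35.54% were in 3′ UTRs. Median scores were 6.321 (K+), 6.282 (Li+), 4.611 (unstressed) and 8.479 (starved), with shares of 26.28% (K+), 23.41% (Li+), 16.22% (unstressed) and 40.08% (starved). Log2 ratios were 0.86 (starved to unstressed) and -0.48 (unstressed to K+). With unlisted positions counted as 2, median scores were 4.573 (unstressed). With G and U as the reference, median scores were 15.26 (K+), 13.34 (Li+), 11.25 (unstressed) and 15.19 (starved), with shares of 70.69% (K+), 69.46% (Li+), 52.74% (unstressed) and 72.5% (starved). Log2 ratios were -0.054 (starved to unstressed) and 0.099 (unstressed to K+). With a DMS minimum of 1 stop per nucleotide, median scores were 5.514 (K+) and 3.883 (unstressed), with shares of 12.07% (unstressed). With 3 counts added, log2 ratios were 0.59 (starved to unstressed). With every stop listed in 1 of the pair, log2 ratios were 0.90 (starved to unstressed) and -0.57 (unstressed to K+). For sharp stops alone, 406 stops remained, 18.26% held the motif and the median was 10 G in 30 nt. Median scores were 5.691 (K+), 5.295 (Li+) and 6.411 (starved), with shares of 23.4% (K+), 21.18% (Li+), 21.39% (unstressed) and 33% (starved). Log2 ratios were -0.028 (K+ to Li+) and -0.33 (unstressed to K+). With listed positions alone as the reference, 39 stops remained, 59.46% were in 3′ UTRs, 25% held the motif and the median was 10 G in 30 nt. Median scores were 3.542 (K+), 4.054 (Li+), 1.779 (unstressed) and 5.287 (starved), with shares of 12.82% (K+), 10.26% (unstressed) and 17.14% (starved). Log2 ratios were -0.35 (K+ to Li+), 1.11 (starved to unstressed) and -0.72 (unstressed to K+). Without transcripts under 30% listed, 798 stops remained, 57.5% were in 3′ UTRs and 11.19% held the motif. Median scores were 4.572 (K+), 4.217 (Li+), 2.591 (unstressed) and 5.923 (starved), with shares of 11.03% (K+), 7.895% (Li+) and 23.99% (starved). Sharp stops alone, listed positions alone and the exclusion of transcripts under 30% listed were alternatives chosen after seeing the data.

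The number of stops fell most, to 39, with listed positions alone as the reference. The share in 3′ UTRs was lower on deeper transcripts and at stops with more counts. Both ratios between cells and other conditions changed sign with G and U as the reference and were closer to 0 with the deposited ratio, where the interval for unstressed cells to K+ (-0.13 to 0.021) included 0, and the ratio of K+ to Li+ stayed near 0 except with listed positions alone. The median stop had 23 counts in each library without DMS, and nucleotides under 3 stops are not listed, so lower values could not be measured at this depth.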
